A study of Homo sapiens with 18 samples.

Results

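The piRNA pathway genes described here are 10 genes taken by symbol, PIWIL1, PIWIL2, PIWIL4, DDX4, MAEL, TDRD1, TDRD9, GTSF1, ASZ1 and MOV10L1. They are 10 of the 18417 genes measured. Each had 1 probe set annotated to its symbol alone, so no choice between probe sets was needed. Values are log2 signals, on which a difference of 1 is a 2-fold change.

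piRNAs are small RNAs of the germ line that guide PIWI proteins to the transcripts of transposons, and in the nucleus of male germ cells to the transposon genes themselves, which then become methylated. Around the PIWI proteins work scaffolds with Tudor domains, RNA helicases and small cofactors that make, load or use the piRNAs. Most of these genes are silent in somatic cells, and DNA methylation of their promoters is a known part of that silence.

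The arrays covered 6 groups of 3. L428, a line from classical Hodgkin lymphoma, and L428-PAX5, its derivative in which mifepristone induces the B-cell transcription factor PAX5, both had 0.25 nM mifepristone and a treatment time of 5 days. In the groups L428+M and L428-PAX5+M nothing else was added. In L428+MAT and L428-PAX5+MAT, 2 days of mifepristone came first, then 3 days with 3 µM of the DNA methylation inhibitor 5-aza-2′-deoxycytidine (5-aza-dC), the last 24 hours of them also with 640 nM of the histone deacetylase inhibitor trichostatin A (TSA). Raji and Namalwa, from Burkitt lymphoma, had no treatment, so cell line and mifepristone cannot be told apart where they are set against L428. All L428 groups carried mifepristone, and the medium of L428-PAX5 also held 25 mM HEPES. Neither 5-aza-dC nor TSA was given alone, so their parts cannot be told apart. Uninduced L428-PAX5 was not analysed here, and the labels do not say whether L428-PAX5 is 1 clone. The labels do not say whether replicates were separate cultures, and the spread behind each p-value may therefore be technical.

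PAX5 matched the labels, with means of 12.73 in L428-PAX5+M and 12.79 in L428-PAX5+MAT against 7.49 in L428+M and 7.17 in L428+MAT. In L428+M replicate 1 it was 8.64, above 7.14 and 6.7 in the other arrays of that group. All 5 measured B-cell markers were higher in Raji and in Namalwa than in L428+M, and all 5 Hodgkin-cell markers were lower. Array medians over all probe sets lay between 6.52 and 6.7. On all 18 arrays, 8 of the 10 members lay under the median gene of their own array, while MAEL did so on 13 arrays and GTSF1 on the 6 Burkitt arrays. Signal this low is compressed toward the background of the array, so changes of dim genes are understated, and a low signal does not show that a gene is off.

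The promoters of 4 members are printed here because these genes behaved differently under the drugs and 5-aza-dC acts at CpG sites. The member windows used were 10 windows of 8 members from RefSeq (GRCh38.p14), after some member windows were left out. PIWIL2 and PIWIL4 were not among those 8. Each window ran from 250 bases before to 50 after an annotated start, and MAEL and TDRD1 had more than 1 start. Capitals mark CpG sites, and each sequence reads 5′ to 3′ on the strand of the gene.
MAEL, first start, chr1:166975332-166975631, plus strand: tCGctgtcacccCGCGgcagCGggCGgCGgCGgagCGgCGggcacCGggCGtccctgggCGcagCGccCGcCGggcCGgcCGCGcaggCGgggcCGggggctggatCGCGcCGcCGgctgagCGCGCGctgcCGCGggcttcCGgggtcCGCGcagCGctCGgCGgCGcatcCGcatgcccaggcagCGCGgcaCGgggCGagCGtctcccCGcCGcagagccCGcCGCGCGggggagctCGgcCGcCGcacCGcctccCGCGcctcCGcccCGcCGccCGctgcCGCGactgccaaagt
MAEL, second start, chr1:166989030-166989329, plus strand: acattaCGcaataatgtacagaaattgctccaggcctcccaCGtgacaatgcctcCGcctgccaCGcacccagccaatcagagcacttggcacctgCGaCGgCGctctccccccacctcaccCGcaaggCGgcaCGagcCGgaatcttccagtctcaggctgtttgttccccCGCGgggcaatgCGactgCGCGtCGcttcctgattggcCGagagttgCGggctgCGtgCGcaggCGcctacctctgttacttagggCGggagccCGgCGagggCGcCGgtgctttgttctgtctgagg
TDRD9, chr14:103928206-103928505, plus strand: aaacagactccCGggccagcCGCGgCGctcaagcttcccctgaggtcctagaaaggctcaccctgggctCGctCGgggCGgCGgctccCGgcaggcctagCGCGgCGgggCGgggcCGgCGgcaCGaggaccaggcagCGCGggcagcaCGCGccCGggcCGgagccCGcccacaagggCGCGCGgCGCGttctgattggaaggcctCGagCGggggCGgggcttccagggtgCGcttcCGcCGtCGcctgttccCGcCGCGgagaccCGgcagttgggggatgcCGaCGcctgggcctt
MOV10L1, chr22:50089756-50090055, plus strand: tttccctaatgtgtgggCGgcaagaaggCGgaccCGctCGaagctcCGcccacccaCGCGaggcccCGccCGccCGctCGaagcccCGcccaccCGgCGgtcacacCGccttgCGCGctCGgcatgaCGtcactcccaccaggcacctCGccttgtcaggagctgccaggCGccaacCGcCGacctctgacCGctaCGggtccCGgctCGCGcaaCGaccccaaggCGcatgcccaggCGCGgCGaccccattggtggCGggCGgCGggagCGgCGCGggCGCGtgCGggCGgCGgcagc
GTSF1, chr12:54473553-54473852, minus strand: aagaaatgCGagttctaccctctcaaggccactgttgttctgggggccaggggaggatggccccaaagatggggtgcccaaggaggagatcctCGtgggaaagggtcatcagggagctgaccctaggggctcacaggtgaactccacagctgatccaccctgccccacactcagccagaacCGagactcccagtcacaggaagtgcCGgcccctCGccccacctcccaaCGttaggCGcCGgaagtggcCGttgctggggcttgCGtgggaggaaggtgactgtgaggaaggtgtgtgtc

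The windows of MAEL held 60 and 27 CpG sites, that of TDRD9 held 41 and that of MOV10L1 held 44, while GTSF1 had 10. The median over all 35116 windows was 14. Of the members not printed, PIWIL1 had 30 CpG sites, ASZ1 29, the 2 starts of TDRD1 17 and 21, and DDX4 1. The array does not say which start was used. Letters bound by repressors of germline genes were searched on both strands. GCGGGA, the core of E2F sites, was found for 5 of the 8 members (ASZ1, MAEL, MOV10L1, PIWIL1 and TDRD9) and for 41.7% of the 14239 measured genes with a window (26.9% of all windows). CACGTG, the E-box, was found for MAEL, at its second start, and for TDRD1, and for 10.9% of those genes (7.26% of all windows). The second start of MAEL alone among the members' windows held both, as did 2.46% of all windows. Some member windows were left out, which was not done for the windows of all genes. The member counts and these shares therefore come from differently chosen windows. A match is only a match of letters.

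The drugs raised some members in both Hodgkin lines and left others near their level without drugs. In L428, 4 of the 10 rose and none fell, where 4.21% of all 18417 genes rose and 0.635% fell (limma, adjusted p below 0.05). These were PIWIL2, MAEL, TDRD1 and TDRD9. In L428-PAX5 the same 4 rose and so did PIWIL1 and DDX4, making 6 of 10, with none lower, where 14.2% of all genes rose and 19.4% fell. Members, lists and markers were chosen with earlier results of these data known. The shares of all genes here and below are therefore a background and not a test of these sets. The median change over the 10 members was 0.34 in L428 and 0.49 in L428-PAX5, and over all genes it was -0.04 in both. MAEL rose at least 2-fold in both lines and TDRD9 in L428-PAX5, where 1.93% of all genes in L428 and 4.71% in L428-PAX5 did so. PIWIL4, GTSF1, ASZ1 and MOV10L1 passed in neither line. In every called case each drug-treated array lay above each control array of its line, a separation upward seen in 11.2% of all genes in L428 and 17.7% in L428-PAX5. The plot of the members by array shows these values.

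**Figure D1:**
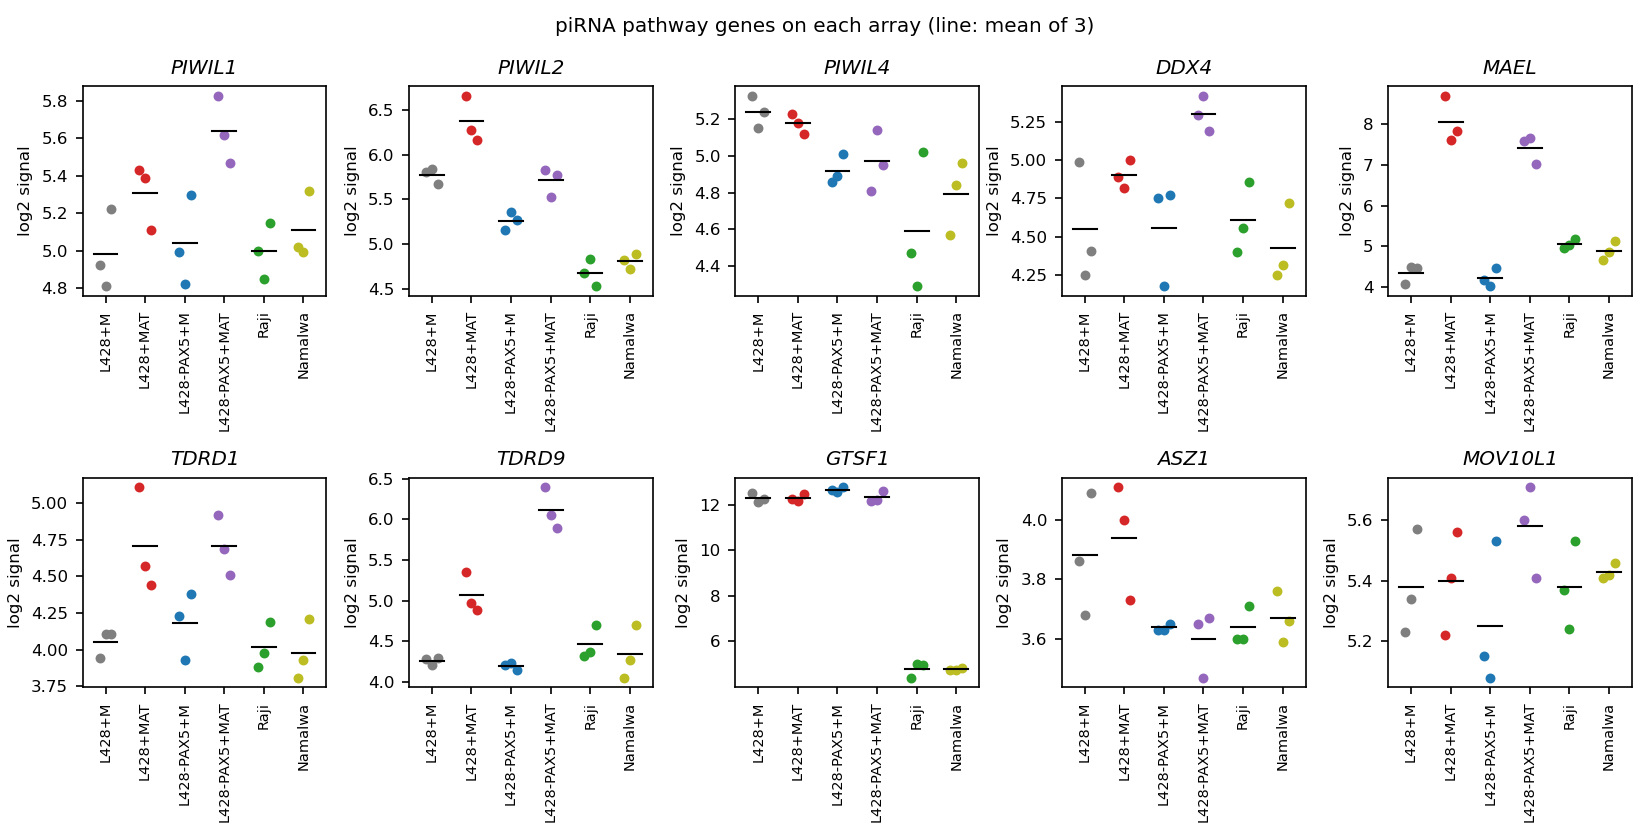
Log2 signal (y axis, a separate scale in each panel) of the 10 piRNA pathway genes on each of the 18 arrays, by group (x axis), with dots for arrays and lines for means of 3. MAEL rises from means of 4.34 and 4.22 to 8.05 and 7.42 with the drugs, TDRD9 is highest in L428-PAX5+MAT, and GTSF1 separates the 4 L428 groups from Raji and Namalwa.

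The PIWI proteins, the Argonaute relatives that carry piRNAs, had small changes with the drugs, the largest being 1.52-fold. PIWIL2 had log2 signals of 5.8, 5.84 and 5.67 without the drugs and 6.66, 6.28 and 6.16 with them in L428. For L428-PAX5 it had 5.16, 5.36 and 5.27 without the drugs and 5.83, 5.52 and 5.77 with them. Every drug-treated array was thus above the controls of its line, and L428+MAT was the highest of all groups. The rise was 0.60 ± 0.14 in L428 (log2 ± SE from limma with 3 arrays a group, adjusted p = 0.0161) and 0.44 ± 0.14 in L428-PAX5 (limma adjusted p = 0.0202). The rise in L428 no longer passed when L428+M replicate 3 (0.54) or L428+MAT replicate 1 (0.45) was left out, nor did that in L428-PAX5 without L428-PAX5+M replicate 1 (0.39) or L428-PAX5+MAT replicate 1 (0.39) or 3 (0.41). Both were also lost with quantile normalization, at 0.54 and 0.34, and with only the groups compared in the fit.

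PIWIL1 was called in L428-PAX5, where it went from 4.99, 4.82 and 5.3 to 5.83, 5.62 and 5.47. In L428 it was 4.92, 4.81 and 5.22 without and 5.43, 5.39 and 5.11 with the drugs, and these groups overlapped. The change was 0.60 ± 0.16 in L428-PAX5 (limma adjusted p = 0.00688) and 0.33 ± 0.16 in L428 (limma adjusted p = 0.358, 95% confidence interval -0.01 to 0.67). The difference between the lines was 0.27 ± 0.23 and did not pass (limma adjusted p = 0.489).

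PIWIL4, the nuclear PIWI protein of human cells, lay between 4.29 and 5.33 on all 18 arrays. With the drugs its 95% confidence interval was -0.40 to 0.28 in L428 and -0.29 to 0.39 in L428-PAX5. Neither interval reaches the rise of 0.60 measured for PIWIL1 in L428-PAX5. The 95% confidence interval of that rise was 0.26 to 0.94 and overlaps both, and a difference between the genes was not tested.

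GTSF1, a small zinc finger protein that binds PIWI proteins and aids their cutting of targets, was the bright member of the set. The L428+M arrays had log2 signals of 12.51, 12.13 and 12.26 for it and the L428+MAT arrays 12.24, 12.17 and 12.47. For L428-PAX5 the values were 12.64, 12.56 and 12.77 without the drugs and 12.17, 12.2 and 12.59 with them. GTSF1 was thus bright on every L428 and L428-PAX5 array, with and without 5-aza-dC and TSA. All of these arrays had mifepristone. In Raji it was 4.42, 5.02 and 4.98, and in Namalwa 4.73, 4.76 and 4.84, with no overlap with any L428 array. Its change with the drugs had a 95% confidence interval of -0.35 to 0.34 in L428 and -0.68 to 0.01 in L428-PAX5 (-0.34 ± 0.17, limma adjusted p = 0.137). The latter passed without L428-PAX5+MAT replicate 3, at -0.47.

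MAEL, the human Maelstrom gene, which is needed for transposon silencing in germ cells, rose most among the members in both lines. Its log2 signal was 4.06, 4.5 and 4.46 without the drugs and 8.71, 7.61 and 7.83 with them in L428. For L428-PAX5 it was 4.16, 4.02 and 4.47 without the drugs and 7.58, 7.66 and 7.02 with them. The drug-treated arrays of both lines stood apart from all other arrays, and MAEL alone among the members crossed the median gene of its array when treated in this way, on 5 of the 6 drug-treated arrays. Without drugs MAEL was dim, so the folds may be understated. The rise was 13.1-fold in L428 (3.71 ± 0.24, limma adjusted p = 1.14e-08) and 9.21-fold in L428-PAX5 (3.20 ± 0.24, limma adjusted p = 2.28e-08). The rises of the lines differed by -0.51 ± 0.34, which did not pass (limma adjusted p = 0.365, 95% confidence interval -1.21 to 0.20).

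The Tudor proteins bind methylated arginines of PIWI proteins and gather the pathway in germ granules. TDRD9, which is also an RNA helicase, was 4.28, 4.2 and 4.29 without the drugs and 5.35, 4.97 and 4.88 with them in L428. In L428-PAX5 it went from 4.2, 4.23 and 4.14 to 6.4, 6.05 and 5.9. The 3 arrays of L428-PAX5+MAT lay above every other array, and those of L428+MAT lay above all the remaining ones. TDRD9 rose 1.76-fold in L428 (0.81 ± 0.18, limma adjusted p = 0.00793) and 3.81-fold in L428-PAX5 (1.93 ± 0.18, limma adjusted p = 2.28e-07). It was the only member whose rise differed between the lines, by 1.12 ± 0.25 (limma adjusted p = 0.00492), where 16.2% of all genes were called in this interaction. By direction 5.64% of all genes were higher and 10.6% lower. Of those calls 34.7% were higher, and 48.7% with quantile normalization. Without drugs the lines had means of 4.25 and 4.19. The call in L428 was lost without L428+MAT replicate 1 (0.67).

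TDRD1, a scaffold with several Tudor domains, was 3.94, 4.11 and 4.11 without the drugs and 5.11, 4.57 and 4.44 with them in L428. In L428-PAX5 it went from 4.23, 3.93 and 4.38 to 4.92, 4.69 and 4.51. Drug-treated and control arrays did not overlap in either line. The rise was 0.65 ± 0.18 in L428 (limma adjusted p = 0.0395) and 0.53 ± 0.18 in L428-PAX5 (limma adjusted p = 0.0278). Both calls were fragile. The first was lost without any 1 array of the comparison except L428+MAT replicate 3 (values from 0.45 to 0.72) and with array medians subtracted (0.61). The second was lost without L428-PAX5+M replicate 1 (0.55) or 2 (0.40) or L428-PAX5+MAT replicate 1 (0.42) or 2 (0.53), and with quantile normalization (0.43). With only the groups compared in the fit, both were lost. In L428+MAT, replicate 1 was the highest array for all 4 called members.

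DDX4, the germ-cell helicase known as VASA, was 4.75, 4.18 and 4.77 without the drugs and 5.29, 5.42 and 5.19 with them in L428-PAX5. In L428 it was 4.99, 4.25 and 4.41 without and 4.89, 4.82 and 5.0 with the drugs. The groups overlapped in L428 and not in L428-PAX5. DDX4 rose by 0.73 ± 0.20 in L428-PAX5 (limma adjusted p = 0.00748), a call lost without L428-PAX5+M replicate 2 (0.54), and its change in L428 was 0.35 ± 0.20 (limma adjusted p = 0.44). The difference of 0.38 ± 0.28 between the lines did not pass (limma adjusted p = 0.425).

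MOV10L1, the helicase that binds piRNA precursors, stayed between 5.08 and 5.71 on all arrays. Its change was 0.017 in L428 (95% confidence interval -0.29 to 0.32) and 0.32 ± 0.15 in L428-PAX5 (limma adjusted p = 0.102). The second passed without L428-PAX5+M replicate 3, at 0.46. ASZ1, which anchors germ granules at mitochondria, lay between 3.47 and 4.11, with intervals of -0.21 to 0.34 in L428 and -0.31 to 0.24 in L428-PAX5. The plot of drug effects sets the members of both lines side by side.

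**Figure D2:**
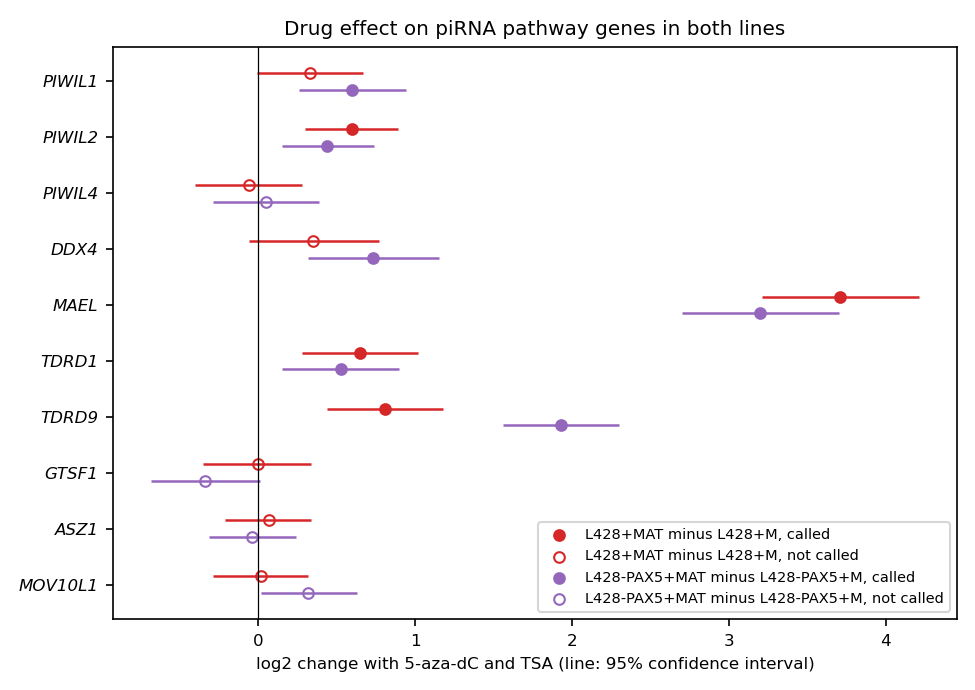
Log2 change with 5-aza-dC and TSA (x axis) for each member (y axis) in L428 (red) and L428-PAX5 (purple), with the 95% confidence interval from limma as a line and called changes as filled dots. MAEL lies above 3 in both lines, TDRD9 is at 0.81 and 1.93, and PIWIL4, GTSF1, ASZ1 and MOV10L1 have open dots in both.

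In the rest of the pathway, too, some genes rose and more did not pass. Of 21 further listed genes 19 were measured, of which 4 rose and none fell in L428 while 7 rose and 1 fell in L428-PAX5. Of all genes 4.21% rose and 0.635% fell in L428, and 14.2% rose and 19.4% fell in L428-PAX5. The medians of the list were 0.15 and 0.32. TDRD12, another Tudor protein with a helicase domain, had 4.7, 4.68 and 4.59 without the drugs and 7.38, 6.17 and 7.04 with them in L428. In L428-PAX5 it went from 4.8, 4.54 and 5.23 to 7.66, 7.78 and 8.25. It rose 4.62-fold in L428 (2.21 ± 0.24, limma adjusted p = 9.21e-06) and 8.2-fold in L428-PAX5 (3.04 ± 0.24, limma adjusted p = 5.49e-08). The lines differed by 0.83 ± 0.34 for this gene (limma adjusted p = 0.113), a difference that passed with the replicate number as a block (limma adjusted p = 0.0411, range over the alternatives 0.00161 to 0.294). It also passed without L428+MAT replicate 1, at 1.09. FKBP6, a co-chaperone of piRNA production, rose by 1.19 ± 0.18 in L428 (limma adjusted p = 0.000301) and by 0.95 ± 0.18 in L428-PAX5 (limma adjusted p = 0.000464). TDRD6, a Tudor scaffold, rose by 1.13 ± 0.21 in L428 (limma adjusted p = 0.00267) and by 1.62 ± 0.21 in L428-PAX5 (limma adjusted p = 1.45e-05). HENMT1, the enzyme that methylates piRNA ends, fell in L428-PAX5 by 0.70 ± 0.20 on the log2 scale (limma adjusted p = 0.0108), a call lost without L428-PAX5+M replicate 1 (-0.57). In the fit with the block, 1592 genes were called in L428 in place of 892, and the called members were the same 4 in L428 and the same 6 in L428-PAX5.

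Somatic small-RNA genes and repressors of germline genes had few rises, near the share of all genes. Their falls in L428-PAX5 were above that share. Both lists are of brighter genes, with lowest array means of 8.98 and 8.78 where the median of all gene values was 7.18. With dim genes left out, 3539 of 11038 genes fell in L428-PAX5, a larger share than over all genes. Against that share the 4 falls among 12 repressors were near, and the 6 among 14 small-RNA genes somewhat above. None of the 14 genes of microRNA production and Argonaute function and none of the 12 repressors passed in L428, where 4.84% of all genes passed in either direction. In L428-PAX5, where 33.7% passed, 2 somatic small-RNA genes rose and 6 fell, where 14.2% of all genes rose and 19.4% fell. AGO1 rose by 0.84 ± 0.14 (limma adjusted p = 0.000188) and AGO3 by 0.42 ± 0.12 (limma adjusted p = 0.00924), both Argonaute proteins, and the AGO3 call was lost without L428-PAX5+M replicate 3 (0.32) and with only the groups compared in the fit. AGO2, the Argonaute that cuts targets, changed by -1.08 ± 0.15 (limma adjusted p = 2.80e-05) and PRKRA, a partner of DICER1, by -0.91 ± 0.19 (limma adjusted p = 0.00111). Among the repressors 2 rose and 4 fell. The de novo methyltransferase DNMT3B rose by 0.94 ± 0.21 (limma adjusted p = 0.00162) and the Polycomb partner RYBP by 0.62 ± 0.15 (limma adjusted p = 0.00369). PCGF6, a subunit of the Polycomb complex that silences germline genes, changed by -1.39 ± 0.24 (limma adjusted p = 0.000157) and the histone methyltransferase SETDB1 by -0.79 ± 0.12 (limma adjusted p = 7.99e-05). The plot by gene list shows each gene.

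**Figure D3:**
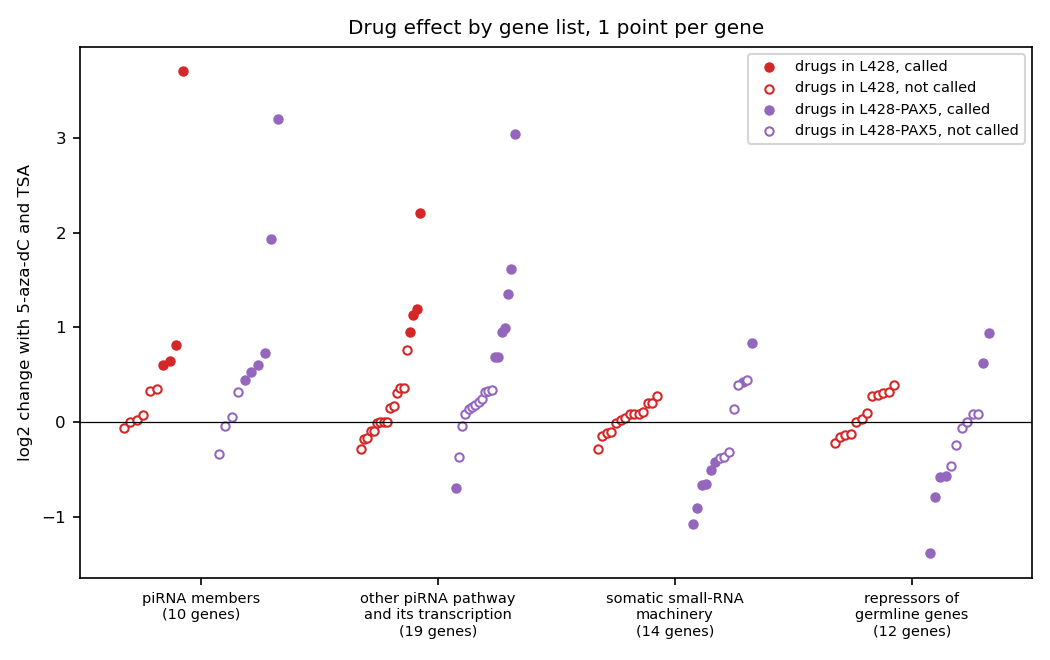
Log2 change with 5-aza-dC and TSA (y axis) for each measured gene of 4 lists (x axis), in L428 (red) and L428-PAX5 (purple), with filled dots for called genes. The members and the other pathway genes have called genes almost all above 0, while the 14 somatic small-RNA genes and 12 repressors have called genes in L428-PAX5 alone, on both sides of 0.

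Some germ-cell genes outside the pathway rose as well. Of 9 markers 3 rose in each line and none fell, where 4.21% of all genes rose in L428 and 14.2% in L428-PAX5. DAZL, a germ-cell RNA-binding gene, rose by 4.38 ± 0.28 in L428 and 2.76 ± 0.28 in L428-PAX5, while SYCP1, TNP1, PRM1, DPPA3, NANOS3 and ZPBP passed in neither. In the interaction 2 of the 9 were called lower and none higher, where 10.6% of all genes were lower and 5.64% higher. They were DAZL (-1.62 ± 0.4, limma adjusted p = 0.0101) and ZPBP (-0.83 ± 0.27, limma adjusted p = 0.04). The mean log2 signal of the 9 was 5.18 to 5.32 on the L428+M arrays, 5.81 to 6.17 on L428+MAT, 5.15 to 5.35 on L428-PAX5+M and 5.82 to 6.0 on L428-PAX5+MAT. Fibroblast and epithelial markers also moved, with 1 of 5 higher in L428 and 4 of 5 in L428-PAX5. Their mean was 6.63 to 6.79, 7.05 to 7.11, 6.66 to 6.72 and 7.36 to 7.56 in the same order of groups. None of the 5 T and NK cell markers passed. Of 5 Hodgkin-cell markers none passed in L428 and 4 fell in L428-PAX5, where 19.4% of all genes fell. Their mean in L428-PAX5 was 10.87 to 10.97 without and 9.57 to 9.82 with the drugs. In the interaction 4 of these 5 markers were called lower, where 10.6% of all genes were. The part of these other genes in the members' rise was not tested. In bulk samples such as these, fewer cells with a transcript and less RNA per cell cannot be told apart.

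Among genes with a promoter window, 4.26% of 14239 rose in L428 and 14.1% rose in L428-PAX5. Of the 1557 genes with CACGTG in a window 62 and 218 rose. The shares were 4.01% and 15.1% for genes with GCGGGA and 2.99% and 11.8% for the 602 genes with both.

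L428-PAX5 and L428 without drugs differed in 1 member, where 16.3% of all genes were called, 9.72% higher and 6.55% lower. PIWIL2 differed by -0.51 ± 0.14, the arrays of L428-PAX5+M being the lower (limma adjusted p = 0.0173), with no overlap between the arrays. It did not pass in the absence of L428+M replicate 1 (-0.49) or 2 (-0.47) or L428-PAX5+M replicate 1 (-0.46), and with quantile normalization (-0.46). With drugs in both lines, PIWIL2 was lower by -0.66 ± 0.14 in L428-PAX5+MAT (limma adjusted p = 0.00125) and TDRD9 was higher by 1.05 ± 0.18 (limma adjusted p = 0.000127), making 2 of 10 members, where 32.0% of all genes were called, 14.3% higher and 17.7% lower. With the replicate number as a block 4 members were called, MAEL and ASZ1 being added. L428+M and L428+MAT also serve as the base and end of the drug effect in L428, so these comparisons share arrays with those above.

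Raji and Namalwa were set against L428+M to see which members the Hodgkin line expresses beyond Burkitt lines. The Burkitt level of GTSF1 lay under the array median, so its folds may be understated. GTSF1 was 180-fold lower in Raji (-7.49 ± 0.17, limma adjusted p = 1.50e-16) and 184-fold lower in Namalwa (-7.52 ± 0.17, limma adjusted p = 2.24e-16). PIWIL2 had 4.68, 4.83 and 4.53 in Raji and 4.82, 4.72 and 4.89 in Namalwa, under every array of the L428 groups. It was lower than in L428+M by -1.09 ± 0.14 in Raji (limma adjusted p = 4.39e-06) and by -0.96 ± 0.14 in Namalwa (limma adjusted p = 1.85e-05). PIWIL4 was lower by -0.65 ± 0.16 in Raji (limma adjusted p = 0.00388) and by -0.46 ± 0.16 in Namalwa (limma adjusted p = 0.0364). The Namalwa difference did not pass in the absence of L428+M replicate 1 (-0.41) or 3 (-0.46) or Namalwa replicate 1 (-0.35) or 2 (-0.48), and with array medians subtracted (-0.44). MAEL alone was higher in Raji, with 4.95, 5.03 and 5.17 (0.71 ± 0.24, limma adjusted p = 0.0286), which did not hold when L428+M replicate 1 (0.57) was left out, or Raji replicate 2 (0.72) or 3 (0.65). In Namalwa MAEL was 4.67, 4.85 and 5.13 and did not pass (limma adjusted p = 0.0934).

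In all, 4 of 10 members were called in Raji, 3 lower and 1 higher, where 31.2% of all genes were called, 15.6% lower and 15.7% higher. In Namalwa 3 of 10 were called, all lower, where 33.9% of all genes were, 15.5% lower and 18.4% higher. The shares called in either direction lie near those of all genes. By direction, the lower calls lie above the share of all genes in both lines, on 3 members each, and the higher calls lie under it. Of all calls in Raji 50.2% were higher, and 60.7% with array medians subtracted, which moved the median of all genes by 0.11. Relative to that shift the 3 lower members and MAEL kept their direction. Both comparisons share the L428+M arrays.

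The levels ordered the groups differently from gene to gene. PIWIL2 fell from L428+MAT (6.37) through L428+M (5.77), L428-PAX5+MAT (5.71), L428-PAX5+M (5.26) and Namalwa (4.81) to Raji (4.68), where L428+M overlapped L428-PAX5+MAT and Namalwa overlapped Raji, and the other neighbours did not overlap. For TDRD9 the order was L428-PAX5+MAT (6.12), L428+MAT (5.07), Raji (4.46), Namalwa (4.34), L428+M (4.25) and L428-PAX5+M (4.19), and the last 4 overlapped from neighbour to neighbour. For MAEL, L428+MAT (8.05) overlapped L428-PAX5+MAT (7.42), Raji (5.05) overlapped Namalwa (4.88), and L428+M (4.34) overlapped L428-PAX5+M (4.22), with gaps between these pairs. PIWIL1 and DDX4 were highest in L428-PAX5+MAT (5.64 and 5.3), above L428+MAT (5.31 and 4.9) with no overlap, and every later neighbour overlapped. TDRD1 had a mean of 4.71 in both drug-treated groups and overlapped among the other 4. For PIWIL4, ASZ1 and MOV10L1 every group overlapped its neighbour.

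Of all genes, those with group means most like a member's were sought for GTSF1 and MAEL, whose 6 group means spanned at least 2 log2 units. The measure was the root mean square difference of the 6 means after centring. PLA2G4A, a phospholipase (0.59), and AHR, the aryl hydrocarbon receptor (0.62), were nearest to GTSF1. PLA2G4A had means of 10.86 in L428+M, 3.85 in Raji and 3.77 in Namalwa, and its mean was 11.31 in L428-PAX5+M and 9.63 in L428-PAX5+MAT, where GTSF1 had 12.66 and 12.32. BRDT, a testis bromodomain gene (0.33), and ROBO1, a guidance receptor (0.39), were nearest to MAEL. BRDT had means of 4.74 and 4.53 without drugs and 8.03 and 8.13 with them in L428 and L428-PAX5, and 4.84 and 4.71 in Raji and Namalwa. The plot of similar genes shows these means.

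**Figure D4:**
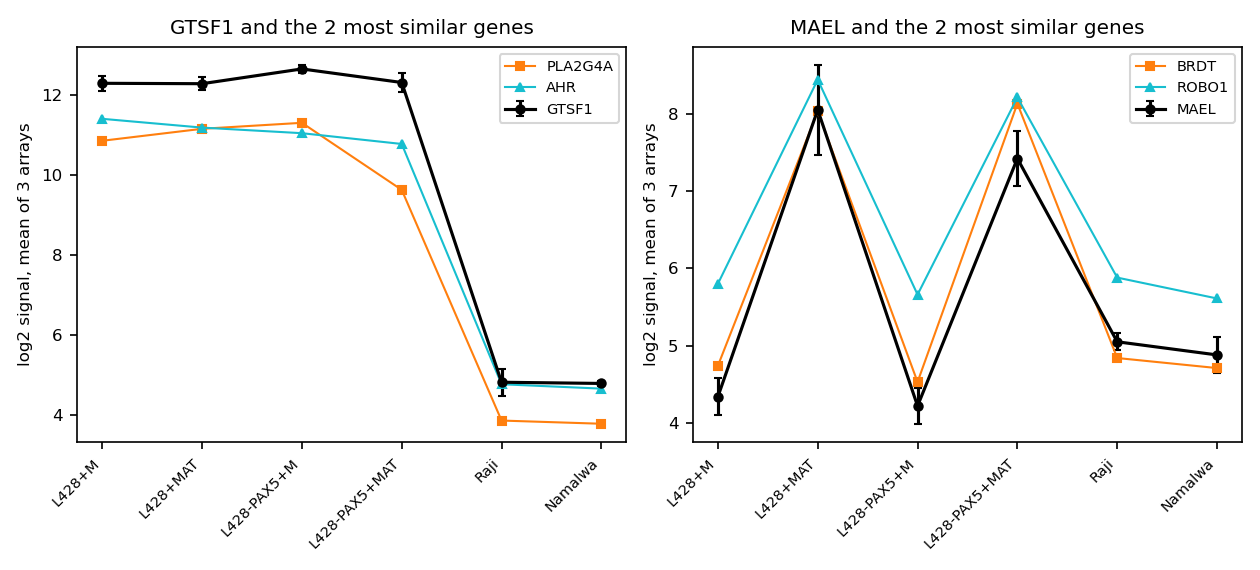
Mean log2 signal of 3 arrays (y axis) by group (x axis) for GTSF1 (left) and MAEL (right), black with SD bars, and for the 2 genes with the most similar centred means. GTSF1, PLA2G4A and AHR are high in the L428 groups and low in Raji and Namalwa, and MAEL, BRDT and ROBO1 are highest in both drug-treated groups.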

How the data were processed

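The deposited values are log2 expression per probe set on Affymetrix whole-transcript arrays, made by the authors with RMA and Partek, per the submitters' processing notes, and these notes give neither versions nor the order of steps. Of 33297 probe sets, 19460 carried 1 gene symbol, 1754 several, and 12083 were not listed. The brightest probe set on average was kept per symbol. The titles of L428-PAX5+MAT name L425-PAX5, and the cell line field was followed. Changes were fitted with limma 3.58.1 in R 4.3.3 (1 mean per group, 18 arrays, eBayes), two-sided, with Benjamini-Hochberg adjustment over 18417 genes, and called at an adjusted p below 0.05. The fit was tested on simulated data with noise drawn separately for each array. That noise lacks the shared deviations of equal replicate numbers described below. Figures were made with matplotlib 3.10.9. The number of arrays limits precision.

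Equal replicate numbers deviated together between each pair of L428 groups compared (r from 0.27 to 0.65), so they pair these samples, but not in Raji (lowest r 0.06) or Namalwa (lowest r -0.01). The main fit left this pairing out, and its p-values do not use it. The fit with the replicate number as a block was run as an alternative.

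Members, lists, markers and motifs were chosen with earlier results of these data known. Besides all members, up to 2 rising and 2 falling called genes per list and drug comparison were named, and the 2 genes nearest to each member spanning 2 log2 units. Member windows on chromosome 8 were left out, which was not done for the windows of all genes. PIWIL2 and PIWIL4 were not among the member windows used. Alternatives changed the scaling, probe set choice, dim-gene filter, groups fitted, variance trend, array weights and replicate block, and left out each array.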

Additional observations from a re-analysis of the deposited data

Results flagged for a closer look

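The drug effect differed between L428-PAX5 and L428 by an interaction test in limma for 4 genes of the pathway. They were 1 of the 10 members and 3 of the 19 other genes measured, where 16.2% of all genes were called. These counts lie near or under the share of all genes. TDRD9 rose by 1.12 more in L428-PAX5 (log2, limma adjusted p = 0.00492). TDRKH, a mitochondrial Tudor protein, had an interaction of 1.36 (limma adjusted p = 0.00103), with means of 7.88 and 7.88 without and with drugs in L428 and 8.0 and 9.36 in L428-PAX5. MYBL1, the transcription factor that drives piRNA genes in the testis, had one of 0.70 (limma adjusted p = 0.0241), with a drug effect of -0.01 in L428 and 0.69 in L428-PAX5, where its mean went from 10.39 to 11.08. MYBL1 was lower in L428-PAX5+M than L428+M, whose mean was 11.01 (-0.62, limma adjusted p = 0.00468), and the difference with drugs was 0.08 (limma adjusted p = 0.759). HENMT1 had one of -1.06 (limma adjusted p = 0.0154), with 6.82 and 7.18 in L428 and 6.89 and 6.19 in L428-PAX5. The MYBL1 call was lost without L428+M replicate 3 (0.62), L428+MAT replicate 2 (0.63), L428-PAX5+M replicate 2 (0.60) or L428-PAX5+MAT replicate 1 (0.66).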

How the results depend on the processing

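The number of members called changed with the filter on dim genes, which left MAEL and GTSF1 alone to be tested: it went from 4 to 1 for the drugs in L428, from 6 to 1 for the drugs in L428-PAX5, from 1 to 0 for the interaction, from 1 to 0 between the lines without drugs, from 2 to 1 between them with drugs, from 4 to 2 in Raji and from 3 to 1 in Namalwa. With only the groups compared in the fit, 2 were called for the drugs in L428 and 4 for the drugs in L428-PAX5. Quantile normalization gave 0 between the lines without drugs and 4 with drugs, where the intensity trend also gave 4, array weights 8 and the replicate block 4. The block changed no other call of a member. Leaving out 1 array gave 1 to 4 members for the drugs in L428 (1 without L428+MAT replicate 1 and 2 without L428+M replicate 3), 4 to 7 for the drugs in L428-PAX5, 1 to 1 for the interaction, 0 to 1 between the lines without drugs, 2 to 4 with drugs, 3 to 4 in Raji and 2 to 3 in Namalwa. Only uncalled changes reversed. With the drugs in L428, MOV10L1 was -0.025 with array medians subtracted and -0.011 with quantile normalization. With the drugs in L428-PAX5, PIWIL4 was -0.06 with quantile normalization and -0.074 with array weights, and ASZ1 was 0.016 with array weights. Interactions under array weights were 0.053 for PIWIL2, 0.045 for MAEL and 0.23 for TDRD1. Leaving out 1 array gave ranges of -0.095 to 0.099 for GTSF1, -0.033 to 0.18 for ASZ1 and -0.065 to 0.11 for MOV10L1 with the drugs in L428, -0.035 to 0.13 for PIWIL4 and -0.075 to 0.026 for ASZ1 in L428-PAX5, and -0.26 to 0.076 for the interaction of TDRD1. Over all genes, the drugs in L428 gave 892 calls, 593 with only the groups compared, 2551 with array weights and 1592 with the block. Array weights gave 9532 in place of 6204 for the drugs in L428-PAX5, 5965 in place of 2990 for the interaction (4730 with the block) and 11176 in place of 5898 between the lines with drugs. The estimation of array weights stopped before its tolerance was reached. Apart from the filter, the cause of these changes was not tested. Low signal over background limits the 8 members under the array median on every array, MAEL without drugs and GTSF1 in Raji and Namalwa.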
